A study of Mus musculus with 12 samples.

Results

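Aldehyde dehydrogenases oxidize reactive aldehydes to acids, and 10 genes of this family were followed here through 12 mouse lung tumors. The genes are *Aldh2*, *Aldh1a1*, *Aldh1a2*, *Aldh1a3*, *Aldh1a7*, *Aldh3a1*, *Aldh3a2*, *Aldh3b1*, *Aldh7a1* and *Aldh9a1*, found by symbol in the deposited count table. They are 10 of the 20 genes in that table whose symbols start with Aldh, out of 39017 genes listed. All 10 passed the filter on low counts, as did 18 of the 20 family genes and 16527 genes in all. The genes were chosen by symbol after levels and fold changes in these same tumors had been seen, so their differences between groups are given as descriptions, with standard errors, and not as independent tests.

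RNA was sequenced from 12 tumors of 9 C57BL/6 mice, in 4 groups of 3 tumors. All mice carried K-ras LSL-G12D/WT, p53 Fl/Fl and the CCSP-rtTA transgene, and each received 6000 units of one lentiviral vector, which carries Cre for tumor initiation and, under a doxycycline-responsive promoter, the dominant negative version PPARαΔ13 of the fatty acid receptor PPARα. KP tumors (Glut1 wild type) and KPG1 tumors (Glut1 Fl/Fl, the floxed gene of a glucose transporter) came from mice on a regular diet, and KP-PPARαΔ13 and KPG1-PPARαΔ13 tumors from mice of the same respective genotypes fed 625 mg/kg doxycycline for 15 days. Tumors were taken 26 weeks after initiation, and immune cells were removed with CD45 beads before extraction. The transactivator rtTA is driven by a club cell promoter, so PPARαΔ13 depends on that promoter being active in the tumor cells. Doxycycline was the inducer of PPARαΔ13 in both genotypes, and effects of the diet and of the transgene cannot be told apart. Each KP tumor was of a female mouse and each KPG1 tumor of a male, so that genotype and sex cannot be told apart on the regular diet. The KP-PPARαΔ13 tumors came from 2 males and 1 female, and the KPG1-PPARαΔ13 tumors from 1 male and 2 females. By the mouse number read from the labels, replicates 1 and 2 of KP shared a mouse, as did replicates 1 and 2 of KPG1 and replicates 1 and 3 of KPG1-PPARαΔ13.

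The family divides by substrate and by place in the cell. In the Aldh1a branch, *Aldh1a1*, *Aldh1a2* and *Aldh1a3* turn retinaldehyde into retinoic acid, the ligand of the retinoic acid receptors. High activity of this branch is widely used to mark progenitor-like cells in lung epithelium and lung cancer. *Aldh2* works in mitochondria and clears acetaldehyde, the Aldh3 branch acts on medium- and long-chain aldehydes such as those from lipid peroxidation, and *Aldh7a1* and *Aldh9a1* belong to lysine breakdown and carnitine synthesis.

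Between 25263794 and 32654223 reads were counted on genes per tumor, which left at least 28 reads for each of the 10 genes in each tumor. Markers of alveolar type 2 (AT2) cells, the surfactant-making cells of the lung, were high. The surfactant gene *Sftpc* had a mean of 15960 CPM (gene counts scaled to a common library size). Per the paper, AT2 cells are considered the main cell of origin in this model. Tumor cells and normal AT2 cells therefore cannot be told apart by these markers. *Ptprc*, the gene of CD45, was at 1.88 to 31.5 CPM in KP and at 3.45 to 9.85 CPM in the other groups. The gene of Glut1, *Slc2a1*, was at 30.2 to 64.0 CPM in the tumors labelled KPG1 and at 35.3 to 57.7 CPM in those labelled KP, so that its level per gene did not set these groups apart. On doxycycline it was at 23.7 to 54.6 CPM in KPG1-PPARαΔ13 and at 108 to 153 CPM in KP-PPARαΔ13. The paper checked the deletion of Glut1 by other measures, real-time PCR and antibody staining of KP and KPG1 tumors. *Ppara* itself was at 2.71 to 246 CPM in KP-PPARαΔ13, 9.54 to 15.7 CPM in KP, 8.90 to 19.2 CPM in KPG1-PPARαΔ13 and 7.24 to 15.3 CPM in KPG1. By the level of *Ppara*, induction was therefore not seen in every tumor on doxycycline, since the KPG1 groups overlapped and 1 KP-PPARαΔ13 tumor lay below all KP tumors. Whether reads from PPARαΔ13 were counted on *Ppara* is not given in the sources used here. By gene set enrichment, the paper reports bile acid, fatty acid and peroxisome pathways repressed with PPARαΔ13 in both genotypes, and takes the construct as functional. That measure differs from the level of *Ppara* and was not run here. Group names below are those of the labels. In RNA from bulk fractions, fewer cells of a type and less RNA per cell cannot be told apart.

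Per exon length, *Aldh2* was the highest of the 10 genes, with a mean of 347 ± 143 TPM (SD over 12 tumors). TPM are counts per length of all exons of a gene, scaled to a common sum. *Aldh2* stood above the next gene, *Aldh1a7*, in all 12 tumors. *Aldh1a7* (151 ± 62.6 TPM) and *Aldh3a2* (127 ± 33.3 TPM) followed, and their order changed between tumors, with *Aldh1a7* higher in 7 of 12. *Aldh7a1* (87.6 ± 34.1 TPM) came next and was above *Aldh9a1* (63.5 ± 15.9 TPM) in 10 of 12 tumors. *Aldh9a1* and *Aldh3b1* (54.0 ± 39.4 TPM) did not differ beyond their spread. The retinoic acid-forming enzymes were lower, with *Aldh1a1* at 31.5 ± 18.7 TPM, *Aldh1a3* at 29.4 ± 28.8 TPM and *Aldh1a2* at 6.00 ± 2.96 TPM, and *Aldh1a1* exceeded *Aldh1a3* in only 7 of 12 tumors. *Aldh3a1* was at 12.5 ± 13.8 TPM and changed places with *Aldh1a2* from tumor to tumor. All exons together were 2066 bases long for *Aldh1a7*, 5619 for *Aldh3a2* and 5181 for *Aldh7a1*. The coding transcripts used for sequences below were 2066, 2892 and 1914 bases long. Orders and shares by TPM therefore depend on the length used.

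**Figure D1:**
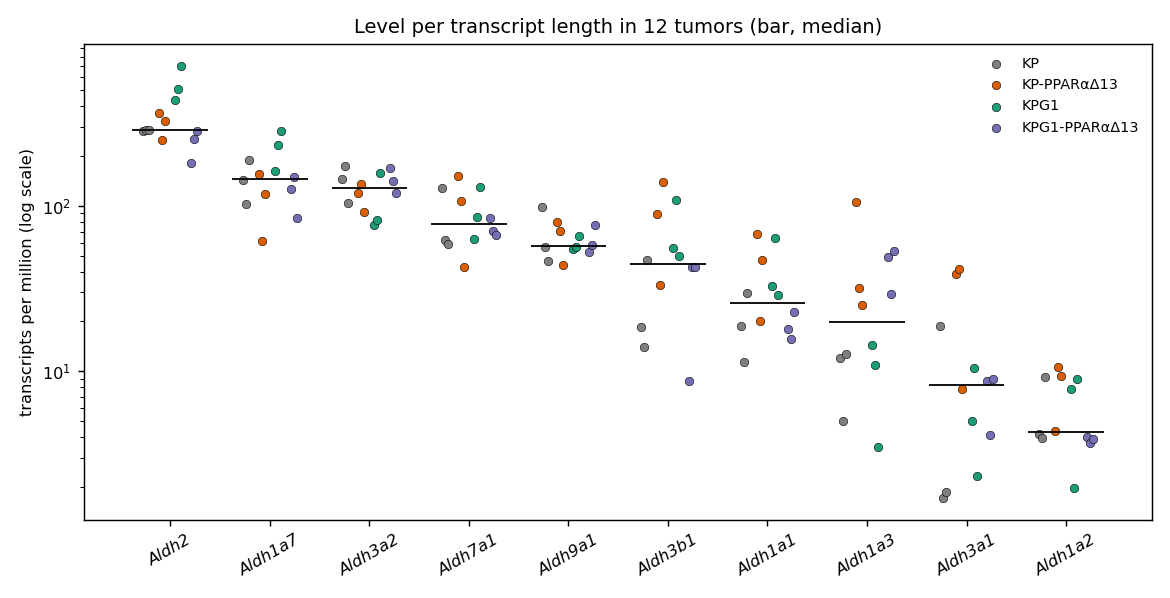
Level of each gene in TPM on a log axis, where the length used is that of all exons of a gene. Points are the 12 tumors colored by group and the bars are medians. *Aldh2* lies between 181 and 706 TPM, while *Aldh1a3*, *Aldh3a1* and *Aldh3b1* each spread over more than an order of magnitude.

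Together the 10 genes made up 78.0% to 85.8% of the summed TPM of the 20 family genes in each tumor, and *Aldh2* alone 20.6% to 42.0%. The summed level of the family was 1139, 1368 and 1678 TPM in KPG1, and every other group had a tumor or more below that range. KP reached 884 to 1083 TPM, KP-PPARαΔ13 946 to 1378 TPM and KPG1-PPARαΔ13 879 to 978 TPM. The KPG1 tumors were therefore above all KP and all KPG1-PPARαΔ13 tumors in this sum, but overlapped with KP-PPARαΔ13.

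**Figure D2:**
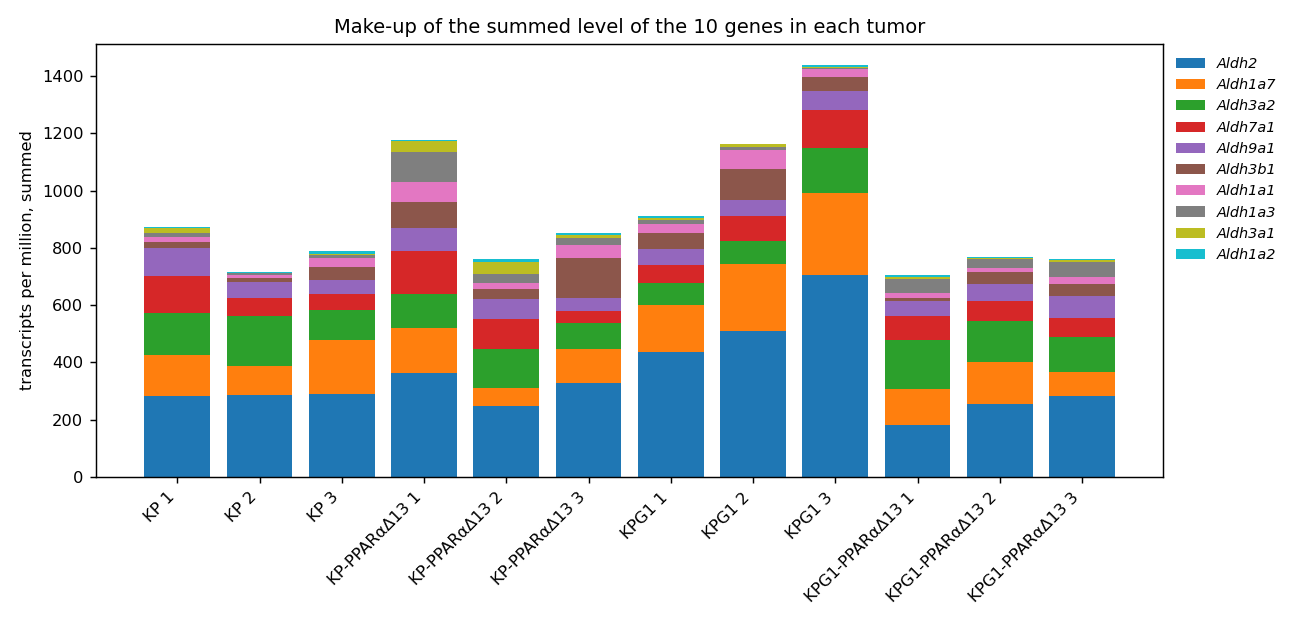
Summed TPM of the 10 genes in each of the 12 tumors, with each gene as one part of the bar. *Aldh2* is the largest part in each tumor, and the bar of KPG1 replicate 3 is the tallest.

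For differences between groups, edgeR's quasi-likelihood test was run on all 16527 genes with Benjamini-Hochberg adjustment. Very few genes passed an adjusted p of 0.05. They were 1 gene (0.00605% of those tested) in KP-PPARαΔ13 against KP, 1 gene (0.00605%) for KPG1-PPARαΔ13 set against KPG1, 6 genes (0.0363%) in KPG1 against KP, 5 genes (0.0303%) in KPG1-PPARαΔ13 against KP-PPARαΔ13, and 0 genes (0%) for the difference of the doxycycline effect between genotypes. None of the 18 family genes was among them, with adjusted p-values of the 10 genes in edgeR from 0.305 to 0.993 over these comparisons. At an unadjusted p under 0.05, edgeR had 3, 4, 2, 1 and 3 of the 10 genes in the same order of comparisons, beside 11.4%, 10.8%, 6.23%, 9.69% and 11.8% of all genes. DESeq2, which called 372, 197, 53, 160 and 286 genes, called 1, 1, 1, 0 and 2 family genes, and these are named below.

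**Figure D3:**
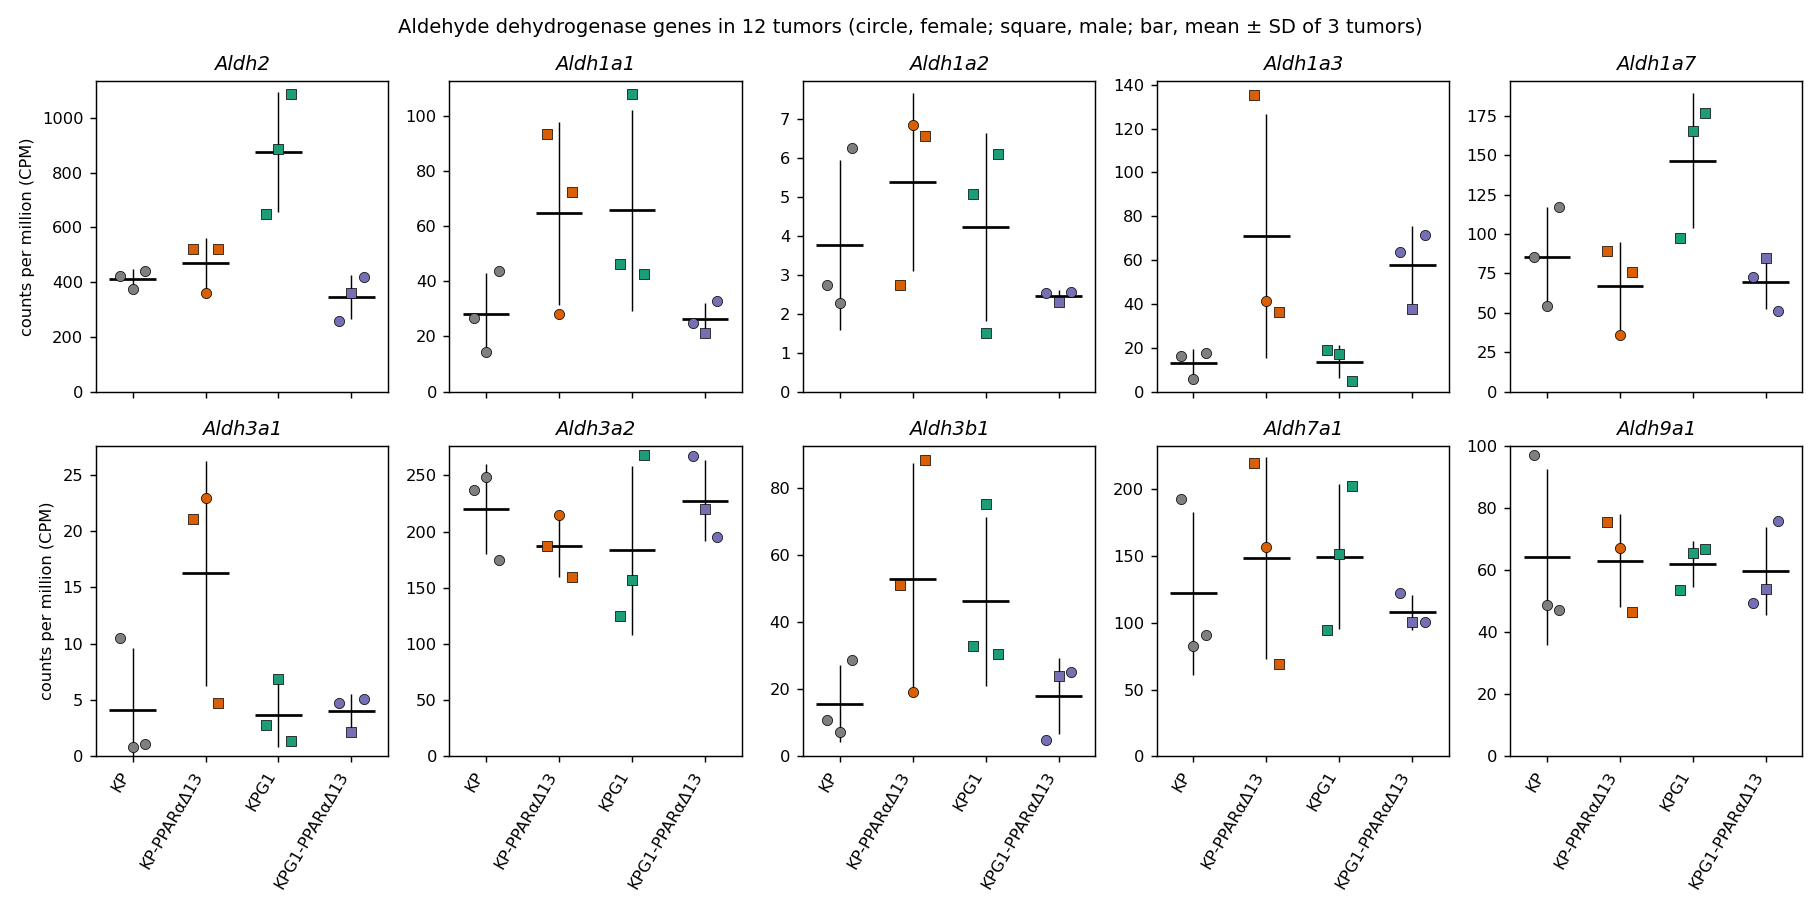
CPM of the 10 genes, one panel each, with circles for tumors of females and squares for tumors of males; horizontal bars are means and vertical bars SD of 3 tumors. *Aldh1a3* is higher in the 6 tumors on doxycycline than in the 6 on regular diet, and *Aldh2* is highest in the 3 KPG1 tumors.

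*Aldh1a3* (ENSMUSG00000015134, chr7:66390890-66427517, minus strand in GRCm38), a retinaldehyde dehydrogenase, was the gene with the clearest split by diet. It was at 16.1, 5.91 and 17.6 CPM in KP and at 135, 41.5 and 36.1 CPM in KP-PPARαΔ13. In the Glut1-floxed tumors it was at 19.1, 17.1 and 4.83 CPM without doxycycline and at 63.6, 37.5 and 71.5 CPM with it. All 6 tumors on doxycycline were above all 6 on regular diet, a separation in that direction found in 0.266% of the genes tested. The log2 fold change was 2.42 ± 0.65 (SE, n = 3 against 3) between the KP groups and 2.07 ± 0.64 between the KPG1 groups. Averaged over both genotypes it was 2.25 ± 0.46, with an edgeR adjusted p of 0.18, in a comparison where 3 of 16527 genes passed the threshold. Between genotypes on the same diet, *Aldh1a3* differed by 0.05 ± 0.62 on the log2 scale without doxycycline and by -0.30 ± 0.61 with it. DESeq2 called it in KP-PPARαΔ13 against KP, with an adjusted p of 0.00874, while it did not pass in edgeR or limma in any setting tried.

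The summed levels of mesothelial, fibroblast and erythroid markers moved with *Aldh1a3* between the KP groups. That of 8 markers of mesothelial cells, which line the lung surface, was 742 to 993 CPM in KP-PPARαΔ13 and 167 to 460 CPM in KP, with 6 of 6 tested markers fitted higher and 0 called. Most of that sum was *Krt19* and *Msln*, which tumor epithelium can also express, and the defining gene *Wt1* was at 0 to 0.226 CPM in KP-PPARαΔ13. The sum of 10 fibroblast markers was 350 to 587 CPM in KP-PPARαΔ13 and 139.5 to 303 CPM in KP, with 7 of 9 tested markers fitted higher and 0 called. For 6 erythroid markers it was 850 to 1320 CPM over 319 to 765 CPM, with 4 of 5 tested markers fitted higher and 0 called. Between KPG1 and KPG1-PPARαΔ13, where *Aldh1a3* was also apart, the sums overlapped for mesothelial markers (211 to 555 and 390 to 530 CPM), fibroblast markers (104 to 399 and 161 to 218 CPM) and erythroid markers (629 to 962 and 731 to 1421 CPM). Within these overlapping sums, 4 of 5 tested erythroid markers were fitted higher with doxycycline and 1 was called by edgeR, with an adjusted p of 0.0105. The hemoglobin gene *Hba-a2* was at 0.103 to 0.529 CPM in KPG1, 29.1 to 122 CPM in KPG1-PPARαΔ13 and 13.1 to 26.2 CPM in KP. The other tested erythroid markers overlapped between KPG1 and KPG1-PPARαΔ13, with *Hba-a1* at 65.2 to 126 and 53.0 to 196 CPM. Of the mesothelial markers 4 of 6 were fitted higher, and of the fibroblast markers 2 of 9, with 0 called. The part of cells with these markers in the *Aldh1a3* differences was not tested.

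*Aldh1a1* (ENSMUSG00000053279, chr19:20492715-20643465, plus strand) and *Aldh1a7* (ENSMUSG00000024747, chr19:20692953-20727562, minus strand) are neighbors on chromosome 19 and close copies of each other. *Aldh1a1* is the main retinaldehyde dehydrogenase of many adult tissues and *Aldh1a7* a rodent gene of the same branch. In GENCODE M21 transcripts, 1380 of their 1506 coding bases were identical (91.6%), while the other pairs among *Aldh2* and the 4 Aldh1a genes shared 63.3% to 67.2%. Reads were 85 bases long, and 27 of the 2274 windows of that length in the *Aldh1a1* transcript also occurred in *Aldh1a7*, or 1.19%. A window of 85 coding bases held a median of 6 differences and at most 19. The stretch with the most differences shows how reads of the genes are told apart, and is given 5′ to 3′ for coding bases 315 to 399, counted from the start codon, with the differing bases in capitals:
Aldh1a1: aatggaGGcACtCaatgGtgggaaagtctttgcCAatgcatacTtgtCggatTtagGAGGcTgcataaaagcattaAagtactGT
Aldh1a7: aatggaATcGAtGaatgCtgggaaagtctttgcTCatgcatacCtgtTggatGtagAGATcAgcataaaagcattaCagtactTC
The longest stretch without a difference, coding bases 757 to 856, holds part of the 27 windows that match both genes, and is given in lower case since it has no differing base:
Both genes: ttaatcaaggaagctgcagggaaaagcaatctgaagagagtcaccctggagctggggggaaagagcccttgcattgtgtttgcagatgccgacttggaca

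*Aldh1a1* was at 26.8, 14.3 and 43.8 CPM in KP and at 93.5, 28.2 and 72.5 CPM in KP-PPARαΔ13, so the groups overlapped while the mean was higher with doxycycline. In KPG1 it was at 46.5, 108 and 42.8 CPM, and in KPG1-PPARαΔ13 at 24.7, 21.4 and 32.9 CPM. Here all 3 tumors on doxycycline were below all 3 on regular diet, the opposite order. The log2 fold change was 1.20 ± 0.51 between the KP groups and -1.32 ± 0.52 between the KPG1 groups, doxycycline over regular diet. Their difference was -2.52 ± 0.73, with an edgeR adjusted p of 0.335 and a DESeq2 adjusted p of 0.0391 over all genes. With sex as a covariate it was -1.62 ± 1.25, with an edgeR adjusted p of 0.971. KPG1 was 1.22 ± 0.51 above KP on the log2 scale with overlapping tumors.

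*Aldh1a7* was more abundant and less spread, at 85.6, 54.2 and 117 CPM in KP and 89.4, 35.9 and 75.8 CPM in KP-PPARαΔ13, which overlapped. In KPG1 it was at 97.4, 165 and 177 CPM, and in KPG1-PPARαΔ13 at 72.9, 84.7 and 50.9 CPM, with every tumor on doxycycline below every tumor without. The log2 fold change was -0.35 ± 0.38 between the KP groups and -1.08 ± 0.38 between the KPG1 groups. On doxycycline, *Aldh1a7* was also apart between tumors of males and of females. Among the 6 tumors on doxycycline it was at 75.8 to 89.4 CPM in the 3 from males and 35.9 to 72.9 CPM in the 3 from females. Of the genes tested, 4.13% were apart with males higher, and the other 9 genes overlapped between the sexes. Most of these males were KP-PPARαΔ13 and most of these female tumors KPG1-PPARαΔ13, so sex and group were mixed. Replicates 1 and 3 of KPG1-PPARαΔ13, both of a female, shared a mouse. With sex as a covariate, its log2 difference between KPG1 and KP fell from 0.78 ± 0.38 to -0.05 ± 0.48. Sex did not vary within KP or within KPG1, so the covariate was estimated from the same 6 tumors on doxycycline. The fall is therefore no separate evidence on sex.

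*Aldh1a2* (ENSMUSG00000013584, chr9:71215789-71296243, plus strand), the retinaldehyde dehydrogenase of mesenchyme in the embryo, was the lowest of the 10 genes, with 44 reads in its lowest tumor. It was at 2.74, 2.27 and 6.26 CPM in KP, and at 2.74, 6.84 and 6.57 CPM in KP-PPARαΔ13. Its levels in the KPG1 tumors were 5.08, 1.52 and 6.11 CPM, and they were 2.52, 2.31 and 2.56 CPM in KPG1-PPARαΔ13. It was lower in all 3 KPG1-PPARαΔ13 tumors than in all 3 KP-PPARαΔ13 tumors, with a log2 fold change of -1.13 ± 0.57, and overlapped in the other comparisons. The summed level of 10 fibroblast markers moved the same way, at 161 to 218 CPM in KPG1-PPARαΔ13 and 350 to 587 CPM in KP-PPARαΔ13, with 8 of 9 tested markers fitted lower, 0 called and a median log2 fold change of -0.82. Mesothelial sums (390 to 530 against 742 to 993 CPM, 4 of 6 tested markers fitted lower) and those of 8 markers of alveolar type 1 (AT1) cells (744 to 1384 against 1823 to 3566 CPM, 7 of 8 lower) were apart in the same comparison, with 0 called. The part of cells with these markers, tumor cells or others, in the *Aldh1a2* difference was not tested.

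*Aldh2* (ENSMUSG00000029455, chr5:121566027-121593824, minus strand), the mitochondrial enzyme for acetaldehyde, set the KPG1 tumors apart. It was at 648, 887 and 1086 CPM in KPG1 and at 421, 375 and 442 CPM in KP. With doxycycline it was at 521, 362 and 522 CPM in KP-PPARαΔ13, and it was at 258, 359 and 420 CPM in KPG1-PPARαΔ13. The 3 KPG1 tumors, from 2 male mice, were above the other 9 tumors, as was the case for 0.75% of the genes tested, and the other 3 groups overlapped with each other. The log2 fold change was 1.08 ± 0.26 for KPG1 against KP and -1.34 ± 0.26 for KPG1-PPARαΔ13 against KPG1, while KP-PPARαΔ13 and KP differed by 0.18 ± 0.25. The difference between the doxycycline effects was -1.52 ± 0.36. DESeq2 called *Aldh2* in these 3 comparisons, with adjusted p-values of 0.0233, 0.000608 and 0.00947, and edgeR did not, with 0.785, 0.406 and 0.33. With sex as a covariate the difference between the effects was -1.09 ± 0.53.

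**Figure D4:**
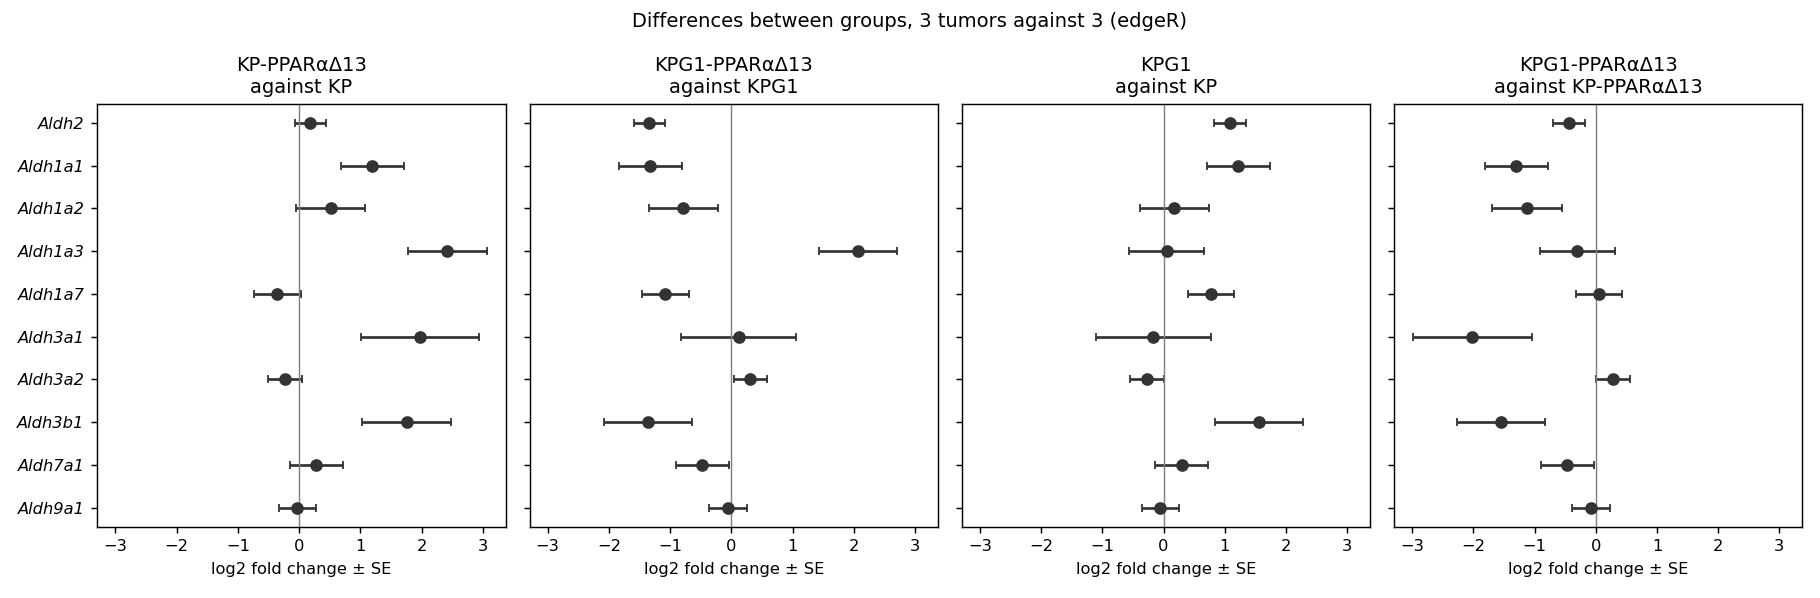
Log2 fold changes of the 10 genes with SE, from the edgeR fit of the 12 tumors, in 4 comparisons of 3 tumors against 3. *Aldh1a3* is at 2.42 and 2.07 in the doxycycline comparisons, while *Aldh2*, *Aldh1a1* and *Aldh3b1* are negative in KPG1-PPARαΔ13 against KPG1 and positive in KPG1 against KP; the groups KPG1 and KP each enter more than 1 panel.

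In the Aldh3 branch, *Aldh3a1* (ENSMUSG00000019102, chr11:61207537-61218421, plus strand), an enzyme inducible through the aryl hydrocarbon receptor, had the widest spread. It was at 10.5, 0.849 and 1.08 CPM in KP and 21.1, 22.9 and 4.72 CPM in KP-PPARαΔ13. In KPG1 it was at 2.80, 6.88 and 1.36 CPM and in KPG1-PPARαΔ13 at 4.71, 2.21 and 5.08 CPM, and all groups overlapped with each other. The log2 fold change of KP-PPARαΔ13 against KP was 1.97 ± 0.97, and KP replicate 1, the highest KP tumor, made it smaller. Without that tumor the value was 4.07 ± 0.90, and that of KPG1 against KP went from -0.17 ± 0.94 to 1.93 ± 0.82.

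*Aldh3a2* (ENSMUSG00000010025, chr11:61223417-61267464, minus strand), the fatty aldehyde dehydrogenase of the endoplasmic reticulum, lies beside *Aldh3a1* but varied far less. It was at 237, 249 and 175 CPM in KP, and at 187, 215 and 160 CPM in KP-PPARαΔ13. Its levels in the KPG1 tumors were 125, 157 and 268 CPM, and they were 267, 220.0 and 196 CPM in KPG1-PPARαΔ13. All 4 groups overlapped, with log2 fold changes from -0.27 to 0.31 and SEs of 0.28. The correlation of the neighbors across the 12 tumors was -0.11.

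*Aldh3b1* (ENSMUSG00000024885, chr19:3913491-3929808, minus strand), which oxidizes aldehydes from lipid peroxidation, was at 10.99, 7.34 and 28.7 CPM in KP and 51.2, 19.2 and 88.3 CPM in KP-PPARαΔ13. It was at 32.8, 75.2 and 30.6 CPM in KPG1 and 4.98, 23.9 and 25.2 CPM in KPG1-PPARαΔ13. The KPG1 tumors were above both KP and KPG1-PPARαΔ13 without overlap, by 1.56 ± 0.72 and 1.36 ± 0.72 on the log2 scale. KP-PPARαΔ13 overlapped with KP, with a log2 fold change of 1.76 ± 0.73. The effect of doxycycline differed by -3.11 ± 1.02 between genotypes, or by -1.25 ± 1.48 with sex as a covariate, and the difference between KPG1 and KP was 0.30 ± 1.01 with that covariate. Of its 85-base windows, 1.41% were shared with *Aldh3b2* or *Aldh3b3*.

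*Aldh7a1* (ENSMUSG00000053644, chr18:56509687-56572951, minus strand), the lysine breakdown enzyme also called antiquitin, was at 192, 82.6 and 90.8 CPM in KP, and at 219, 157 and 69.1 CPM in KP-PPARαΔ13. Its levels in the KPG1 tumors were 94.2, 152 and 202 CPM, and they were 122, 100.2 and 100.3 CPM in KPG1-PPARαΔ13. *Aldh9a1* (ENSMUSG00000026687, chr1:167349991-167368532, plus strand), which makes a precursor of carnitine, was at 97.0, 48.8 and 47.3 CPM in KP, and at 75.6, 67.2 and 46.4 CPM in KP-PPARαΔ13. Its levels in the KPG1 tumors were 53.5, 65.4 and 66.9 CPM, and they were 49.4, 53.9 and 75.7 CPM in KPG1-PPARαΔ13. Both genes overlapped between all groups. Their log2 fold changes lay between -0.47 and 0.29 for *Aldh7a1*, with SEs of 0.43, and between -0.08 and -0.03 for *Aldh9a1*, with SEs of 0.30. For *Aldh9a1*, KP replicate 1 was again the highest tumor, and without it KP-PPARαΔ13 was 0.40 ± 0.26 above KP on the log2 scale.

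Counted over the 10 genes, 1 was apart between KP-PPARαΔ13 and KP (13.3% of all genes tested, 6.55% with doxycycline higher), 5 between KPG1-PPARαΔ13 and KPG1 (20.6%), 2 between KPG1 and KP (9.95%, or 4.82% with KPG1 higher) and 1 between the doxycycline groups (17.6%, or 7.25% with KPG1-PPARαΔ13 lower). The 5 genes were *Aldh1a3*, higher with doxycycline, where 11.2% of all genes were, and *Aldh2*, *Aldh1a1*, *Aldh1a7* and *Aldh3b1*, lower with it, where 9.41% were. The median log2 fold change of the 10 genes was 0.40, -0.63, 0.23 and -0.45 in these comparisons, which share groups and are not independent of each other. AT2 and AT1 markers moved with the lower levels of the 4 genes in KPG1-PPARαΔ13. The AT2 sum over 10 markers was 25750 to 41650 CPM against 50110 to 79490 CPM in KPG1, with 10 of 10 fitted lower, a median log2 fold change of -0.89 and 0 called. The AT1 sum was 744 to 1384 CPM against 1901 to 2945 CPM, with 7 of 8 markers fitted lower and 0 called. The club cell sum was 264 to 312 CPM against 405 to 786 CPM, although 5 of 8 markers were fitted higher and 3 lower, with 0 called. Most of that sum was *Hp*, with means of 144 CPM and 363 CPM, and *Cyp2f2*, with 24.0 CPM and 184 CPM. All 8 endothelial markers were fitted lower, with overlapping sums of 174 to 272 CPM and 187 to 507 CPM and 0 called. In KP-PPARαΔ13 against KP, 8 of 10 AT2 markers were fitted lower, with a median log2 fold change of -0.37, and 7 of 8 AT1 markers higher, with 0 called. There *Aldh1a1* (1.20), *Aldh3b1* (1.76) and *Aldh2* (0.18) were fitted higher and *Aldh1a7* (-0.35) lower. The AT2 markers thus did not go with all 4 genes in that comparison. The part of cells with these markers, tumor cells or others, in the levels of the 4 genes was not tested.

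The other 8 tested genes of the family had none called in edgeR either. *Aldh5a1*, which ends the breakdown of the transmitter GABA, had a log2 fold change of -1.20 ± 0.42 for KP-PPARαΔ13 over KP, where the tumors overlapped. It was apart and higher in KPG1-PPARαΔ13 than in KP-PPARαΔ13 (0.98 ± 0.42), as was *Aldh6a1* of valine breakdown (0.45 ± 0.34). *Aldh1l1*, a folate enzyme, varied 135-fold between its lowest and highest tumor in CPM and *Aldh16a1* 1.43-fold. *Aldh1b1* and *Aldh8a1* did not pass the filter, with means of 0.163 and 0.109 CPM.

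Genes around the 10 enzymes were counted in lists. Of the retinoid pathway, 22 of 25 genes were tested, and 0 were called by edgeR in any of the 4 comparisons. At an unadjusted p under 0.05, edgeR had 4, 5, 0 and 5 of the 22, beside 11.4%, 10.8%, 6.23% and 9.69% of all genes. Between KP-PPARαΔ13 and KP, 12 were fitted higher and 10 lower, with a median log2 fold change of 0.04. *Stra6*, the retinol uptake receptor, was at 2.87 ± 0.97 and *Cyp26b1*, which breaks down retinoic acid, at 1.42 ± 0.64 on that scale, while *Adh1*, which makes retinaldehyde from retinol, was at -1.72 ± 0.74. In KPG1-PPARαΔ13 against KPG1 the list was also split, with 12 fitted higher and 10 lower, and the receptor gene *Rarb* at 1.86 ± 0.63.

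Other enzymes that remove aldehydes, by reduction, conjugation or oxidation, were all tested, 17 of 17, and 0 were called by edgeR in the 4 comparisons. At an unadjusted p under 0.05, edgeR had 1, 5, 2 and 0 of the 17, beside 11.4%, 10.8%, 6.23% and 9.69% of all genes. In KPG1 against KP 14 were fitted higher and 3 lower, with a median log2 fold change of 0.38. In KPG1-PPARαΔ13 against KPG1 7 were fitted higher and 10 lower, among them the aldehyde oxidase *Aox1* (-1.45 ± 0.42) and the carbonyl reductase *Cbr3* (-2.07 ± 0.65). Of 18 genes of the aryl hydrocarbon receptor and NRF2 responses, 16 were tested and 0 called by edgeR. At an unadjusted p under 0.05, edgeR had 2, 4, 2 and 1 of the 16, beside the same shares of all genes. *Nqo1*, a quinone reductase under both factors, had log2 fold changes of 2.00 ± 0.81 for KPG1 over KP and of -2.21 ± 0.82 for KPG1-PPARαΔ13 over KPG1. *Cyp1a1*, the usual target of the aryl hydrocarbon receptor, had a mean of 0.0308 CPM.

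From tumor to tumor, *Aldh1a1* and *Aldh3b1* varied together most closely. Over the 12 tumors their log2 CPM had a Pearson r of 0.86 and a Spearman rho of 0.92, with permutation p-values of 0.00042 and 7e-05 that became 0.0189 and 0.00315 after adjustment over 45 pairs. The r was 0.78 without the 2 tumors farthest from the median and 0.73 with group means removed. It was the only pair of 45 with an adjusted p under 0.05 for r. By rho, 4 further pairs passed, with adjusted permutation p-values of 0.0363 for *Aldh2* and *Aldh3b1* (rho of 0.81), 0.0363 for *Aldh7a1* and *Aldh9a1* (0.80), 0.0409 for *Aldh2* and *Aldh1a1* (0.79) and 0.0419 for *Aldh2* and *Aldh1a7* (0.77), while their adjusted p-values for r were 0.137, 0.0784, 0.151 and 0.0784. With group means removed, the r of these 4 pairs was 0.69, 0.79, 0.49 and 0.57. For *Aldh2* and *Aldh1a7* it was 0.40 without the 2 tumors farthest from the median. The tumors came from 9 mice, so that these p-values take tumors of one mouse as independent. Tumors were also permuted across groups, so that shared differences between groups enter the p-values. The near-identical neighbors *Aldh1a1* and *Aldh1a7* had an r of 0.54 (permutation p = 0.0695, adjusted p = 0.291).

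The genes most like each of the 10, by Pearson r of log2 CPM over the 12 tumors, were sought among 14109 tested genes with a mean of at least 1 CPM, leaving out the family. For *Aldh1a1* they were *Atrnl1*, *Xpnpep1* and *Fibp*, with r of 0.97, 0.96 and 0.95, and for *Aldh3b1* *Vps13a*, *Rhod* and *Wbp1l*, with r of 0.97, 0.95 and 0.95, all 6 on chromosome 19. For *Aldh7a1* they were *Paip2*, *Slc35a4* and *0610009O20Rik*, with r of 0.97, 0.94 and 0.92, all on chromosome 18 as *Aldh7a1* is. All 3 most alike genes were on the same chromosome for 3 of the 10 genes, for 16.8% of all autosomal genes compared and for 40.5% of those on chromosome 19. At least 1 of the 3 was for 5 of the 10 genes, for 55.6% of all and for 69.3% of those on chromosome 19, so that the 10 genes were near the background by this count. *Aldh1a3* was most like *Pdlim7* (0.94), *Aldh2* most like *Tmem184a* (0.87) and *Aldh1a2* most like *S1pr3* (0.96). These are correlations over 12 tumors that share groups and mice, and are given as descriptions.

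The median level of chromosome 19 moved in the same tumors. Relative to each gene's own mean, the median of 477 chromosome 19 genes ran from -0.67 in KP replicate 1 to 0.61 in KPG1 replicate 2 on the log2 scale, the widest range of the 19 autosomes. The r with this median was 0.90 for *Aldh3b1*, 0.85 for *Aldh1a1* and 0.40 for *Aldh1a7*, and for *Aldh7a1* with the median of its own chromosome 18 it was 0.85. Over 535 tested genes of chromosome 19, the median log2 fold change was 0.46 for doxycycline between the KP groups, -0.35 between the KPG1 groups and 0.53 for KPG1 over KP, with the same signs as *Aldh1a1* and *Aldh3b1*. For *Aldh1a1* the SD over tumors was 0.88 on the log2 scale and 0.60 after the chromosome median was subtracted, and for *Aldh3b1* 1.25 and 0.94. The part of the chromosome in the differences between groups was not tested.

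**Figure D5:**
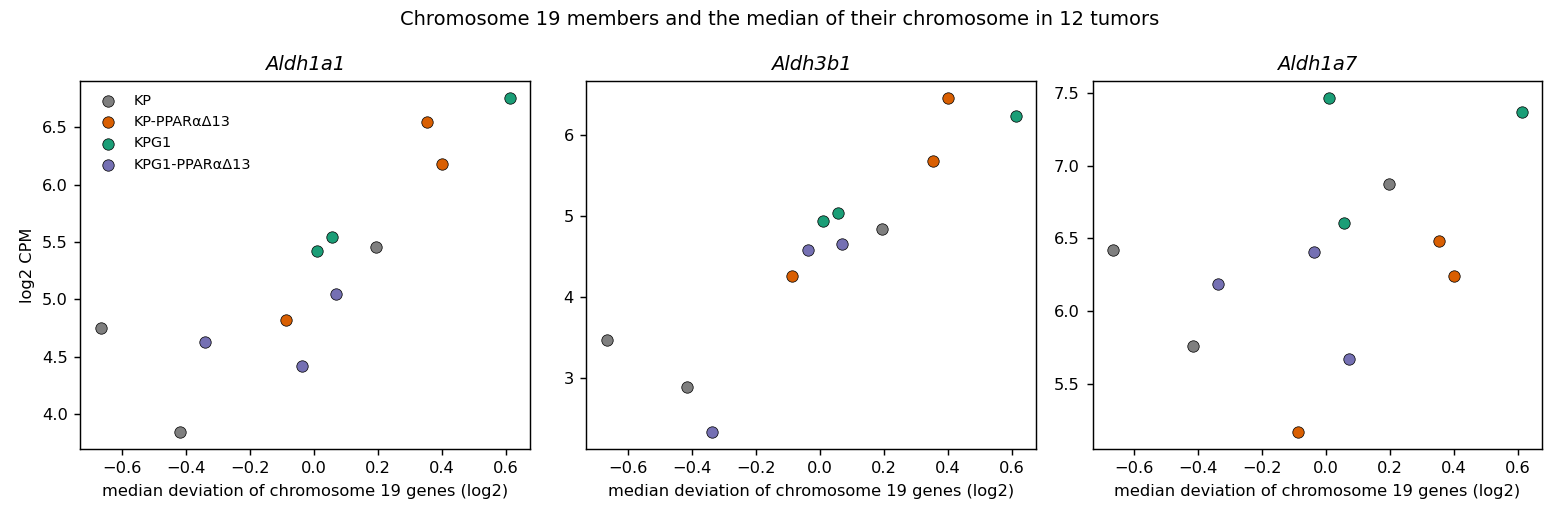
Log2 CPM of *Aldh1a1*, *Aldh3b1* and *Aldh1a7* against the median log2 deviation of chromosome 19 genes in the 12 tumors, colored by group. *Aldh1a1* (r of 0.85) and *Aldh3b1* (0.90) rise with the chromosome median, while *Aldh1a7* (0.40) is scattered.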

How the data were processed

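RNA of CD45-negative fractions from 12 mouse lung tumors was analysed, with groups, replicate numbers and sex taken from the sample labels. Per the labels and the study's methods, libraries were made with a stranded mRNA kit and read as 85-base single ends. Trimming by the authors used Cutadapt, alignment HISAT2 on mm10, and gene counts featureCounts 1.4.4, the version in the submitters' processing notes. They deposited raw counts per gene for each tumor and in 1 combined table, which were equal for all 12 tumors. The deposited log2 values equalled log2 of the count plus 0.5 per TMM-scaled library and were not used for tests. The number of value columns without a matching sample was 0.

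Group differences were fitted on these counts in edgeR 4.0.16 under R 4.3.3 (TMM, filterByExpr by group, glmQLFit and glmQLFTest, 12 tumors in one fit with 8 residual degrees of freedom), with Benjamini-Hochberg adjustment over 16527 genes at 0.05. The biological coefficient of variation was 0.44, so that for most genes the spread between tumors limits the precision more than depth does. The study's methods use limma voom, which was run as an alternative, as were DESeq2 1.42.0, RLE size factors, no filter of low-count genes, only genes with 20 TPM or more on average, sex as a covariate, a replicate block, tumors of one mouse summed and leaving out each tumor. CPM (counts scaled to a common library size) are TMM-scaled. TPM use exon lengths of GENCODE M21, which held 96.6% of the gene identifiers and gave the coordinates and transcript sequences. Replicates are tumors, and as some share a mouse, p-values are too small to that extent. Log2 CPM for correlations used a prior count of 2, with 100000 permutations. The edgeR script was tested on simulated data.

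The 10 genes and all lists were chosen with earlier results of these data known. Named besides the 10 are the other family genes, up to 4 genes per list and comparison with the largest log2 fold change at a mean of at least 1 CPM or the highest level, and the 3 most alike genes of each member. *Wt1*, *Cyp1a1* and *Ptprc* were named as defining genes after their values were seen. *Aldh3b3* and protein sequences were not analysed here.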

Additional observations from a re-analysis of the deposited data

How the results depend on the processing

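Under 20 other settings, 990 log2 fold changes of the 10 genes were recomputed from 50 values. Of these, 16 moved by at least the SD between tumors of a group, 9 of them with sex as a covariate and 6 without KP replicate 1. The sex covariate was estimated from the tumors on doxycycline alone, since sex did not vary within KP or within KPG1. The sign changed for 50, but for 0 of those whose value was at least 1 in size. The log2 fold change of *Aldh1a3* in KP-PPARαΔ13 against KP ranged from 1.55 to 2.74 without each tumor in turn, with edgeR adjusted p-values of 0.207 to 0.687, and from 2.28 to 2.44 in the other settings, with 0.00874 (DESeq2) to 0.491. That of *Aldh2* in KPG1-PPARαΔ13 against KPG1 ranged from -1.52 to -1.17 and from -1.41 to -1.13.

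Counts of called genes are given in the order KP-PPARαΔ13 against KP, KPG1-PPARαΔ13 against KPG1, KPG1 against KP, KPG1-PPARαΔ13 against KP-PPARαΔ13, and the difference of effects. Against 1, 1, 6, 5 and 0 in edgeR they were 372, 197, 53, 160 and 286 in DESeq2, with 1, 1, 1, 0 and 2 family genes. They were 1, 0, 5, 5 and 0 in limma voom, 2, 1, 5, 5 and 0 with no filter on low counts, 0, 1, 2, 2 and 0 with sex as a covariate, and 0, 0, 2, 2 and 0 with tumors of one mouse summed. Leaving out each tumor gave 0 to 1, 0 to 2, 2 to 6, 2 to 10 and 0 genes, with 0 family genes. Outside DESeq2, no setting called a family gene, and the cause was not tested. With RLE size factors or a mean of at least 20 TPM, each count stayed within 1.5 times of the first.

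The replicate numbers did not pair the tumors, as deviations of same-numbered tumors correlated at -0.19 to 0.127 and 2 of 18 pairs were above 0.1. With the replicate number as a block, 0, 2, 4, 3 and 0 genes were called.

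Averages over both genotypes or diets and the chromosome medians were added after seeing the data. Depth adds counting error to *Aldh3a1* and *Aldh1a2*, which had 28 and 44 reads in their lowest tumors.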

Other observations

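Averaged over both genotypes, *Aldh2* was 0.58 ± 0.18 lower on doxycycline on the log2 scale (value -0.58), with an edgeR adjusted p of 0.342. The lower average came from the KPG1 groups (-1.34 ± 0.26), since *Aldh2* differed by 0.18 ± 0.25 between the KP groups. The averages of *Aldh3b1* and *Aldh1a1* were 0.20 ± 0.50 and -0.06 ± 0.36, since their values in the 2 genotypes had opposite signs. Averaged over both diets, Glut1-floxed and wild-type tumors differed by 0.32 ± 0.18 in *Aldh2*, 0.004 ± 0.50 in *Aldh3b1* and -0.04 ± 0.36 in *Aldh1a1*. The values of each of these genes on the 2 diets had opposite signs, for *Aldh2* 1.08 ± 0.26 without doxycycline and -0.44 ± 0.25 with it. A negative correlation of *Aldh3a2* with *Aldh3b1* over the 12 tumors (r of -0.70, permutation p = 0.0111, adjusted p = 0.125) was -0.95 without the 2 tumors farthest from the median and -0.61 with group means removed. Of the 30 most alike genes of the 10 members, 11 lay on the chromosome of their member.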
